A study of Mus musculus with 7 samples.

Results

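The 10 genes described here mark GABAergic interneurons of the hippocampus, and they are a list of gene names, with no measured value in the rule, drawn up with earlier results of these data known. They are 10 of the 27583 genes in the deposited table. Gad1, Gad2 and Slc32a1 serve the transmitter itself, and Pvalb, Sst, Vip, Cck, Npy, Reln and Lhx6 mark kinds of interneuron. RNA was sequenced from the hippocampus of male wild-type (WT) mice in 7 libraries, with the strain given as C57BL6/J in the sample titles and as C57BL/6 in the source field. The series was designed around mice with and without injury of the spinal cord, but every sample carries the same labels and none is marked as injured or healthy. All 7 therefore stand in 1 group as replicates 1 to 7, no injured and healthy values are set against each other, and each value is given by library.

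Interneurons are the inhibitory neurons of the hippocampal circuit. Glutamate decarboxylase, in 2 forms encoded by Gad1 and Gad2, makes GABA from glutamate, and the transporter encoded by Slc32a1 loads it into synaptic vesicles. These 3 genes are used by nearly every GABAergic neuron of the forebrain, including the projection neurons of the striatum, whereas the peptides, the calcium-binding protein parvalbumin, reelin and Lhx6 divide interneurons into classes. Cck is also transcribed in pyramidal cells, so its level in whole tissue does not belong to interneurons alone.

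Expression was given as FPKM (fragments per kilobase of gene, scaled to the mapped fragments of a library), which sets genes of different length on 1 scale. Replicate 5 stood apart from the other libraries before any member is considered. The 18 listed marker genes of striatal projection neurons summed to 2145 FPKM in replicate 5 and to 102 to 123 FPKM in the other 6 libraries, and 10 of the 10 with a median of at least 1 FPKM were highest there. The 15 marker genes of hippocampal pyramidal and granule neurons summed to 934 FPKM in replicate 5 and to 1321 to 1722 FPKM in the others, and 13 of the 15 were lowest there. All 15 had a median of at least 1 FPKM. Results are therefore given with and without replicate 5. In bulk RNA, more or fewer cells of a type and more or less RNA per cell cannot be told apart. Reads behind the values could be recovered as whole numbers within 0.02 for 12050 of the 12052 genes whose median reached 1 FPKM. They summed to between 35465159 and 36794804 per library, so that depth hardly differed. All 10 members passed this minimum.

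The stretches of DNA just before the transcription start of 5 members are printed because they belong to the genes on which the results turn: the 3 GABA genes, which stood high together in replicate 5, and Sst and Vip, peptide genes that did not. Each run is the 250 bases before the start given by RefSeq on GRCm38.p6, the assembly also called mm10, read 5′ to 3′ on the gene's own strand. Gad1 lies at chr2:70561879-70562128 (plus strand), Gad2 at chr2:22622077-22622326 (plus), Slc32a1 at chr2:158610508-158610757 (plus), Sst at chr16:23890845-23891094 (minus) and Vip at chr10:5638968-5639217 (plus). The RefSeq starts do not all match the gene bounds of GENCODE M21 given further on. By those bounds the Gad1 window lies inside its gene, and the windows of Gad2 and Sst overlap theirs. Distances before the start are counted from the RefSeq start. Capitals mark matches, on either strand, to TGACG, the core of the cAMP response element, or to TATAAA, the core of the TATA box.
Gad1: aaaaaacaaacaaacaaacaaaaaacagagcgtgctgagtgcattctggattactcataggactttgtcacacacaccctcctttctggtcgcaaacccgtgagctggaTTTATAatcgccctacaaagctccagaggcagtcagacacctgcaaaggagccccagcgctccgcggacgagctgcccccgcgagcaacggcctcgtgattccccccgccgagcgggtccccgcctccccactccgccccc
Gad2: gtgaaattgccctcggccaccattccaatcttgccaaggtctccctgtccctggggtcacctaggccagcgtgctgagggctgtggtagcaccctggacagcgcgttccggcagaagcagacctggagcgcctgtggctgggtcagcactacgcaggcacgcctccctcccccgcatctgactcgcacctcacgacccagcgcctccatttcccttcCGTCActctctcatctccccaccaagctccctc
Slc32a1: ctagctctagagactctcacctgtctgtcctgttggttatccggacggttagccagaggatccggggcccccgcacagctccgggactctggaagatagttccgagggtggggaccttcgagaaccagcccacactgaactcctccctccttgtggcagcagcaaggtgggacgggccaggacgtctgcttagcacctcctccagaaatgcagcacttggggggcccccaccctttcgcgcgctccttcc
Sst: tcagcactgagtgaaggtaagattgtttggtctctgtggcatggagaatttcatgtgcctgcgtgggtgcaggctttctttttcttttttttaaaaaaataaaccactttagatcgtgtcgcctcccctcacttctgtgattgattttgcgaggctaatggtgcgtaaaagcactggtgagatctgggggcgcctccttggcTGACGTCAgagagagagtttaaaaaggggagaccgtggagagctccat
Vip: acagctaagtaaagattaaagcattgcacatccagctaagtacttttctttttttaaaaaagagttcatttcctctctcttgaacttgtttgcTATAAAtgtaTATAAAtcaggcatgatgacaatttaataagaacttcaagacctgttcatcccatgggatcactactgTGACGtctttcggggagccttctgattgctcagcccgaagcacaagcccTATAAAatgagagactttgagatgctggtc
The full cAMP response element, TGACGTCA, which holds this core on both strands, was found in Sst, where it begins 48 bases before the start, and in none of the other member windows. The tables hold 13 such windows for the 10 members. Of all 32851 windows of the same length, 1.55% held the full element and 17.8% the core. Cores stood in the windows of Gad2, Cck, Vip and Sst. In Gad2 the match begins 33 bases before the start and in Vip 79 bases. TATAAA was found in Gad1, 141 bases before the start, and at 3 places in Vip, and is held by 12.4% of all windows. Slc32a1 had neither. The homeodomain core TAATTA (4.84% of all windows) was in none of the 13, and the E-box CANNTG (66.2%) was in 8. Matches of letters are a description and say nothing of what binds there.

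The 3 GABA genes were each highest in replicate 5 and varied little among the other 6 libraries. Slc32a1, the vesicular GABA transporter gene (chromosome 2, 158610767 to 158615748, plus strand, GENCODE M21 on mm10), had 44.5 FPKM in replicate 5 and 17.0, 17.5, 16.8, 17.5, 16.5 and 18.6 FPKM in replicates 1, 2, 3, 4, 6 and 7. Replicate 5 was 2.58 times the median of the others, and the others differed among themselves by a factor of 1.13. The counting interval (exact Poisson, 95%, counting error only) of 43.4 to 45.5 FPKM in replicate 5 lay far above that of 18.0 to 19.3 FPKM in replicate 7, the next highest library.

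Gad2, the decarboxylase concentrated at synaptic terminals (chromosome 2, 22622205 to 22693874, plus strand), had 34.4 FPKM in replicate 5 and 16.5, 17.4, 14.8, 17.5, 18.5 and 18.4 FPKM in replicates 1, 2, 3, 4, 6 and 7. That is 1.98 times the median of the others. Gad1, the decarboxylase found throughout the cell (chromosome 2, 70553072 to 70602014, plus strand), had 100.5 FPKM in replicate 5 and 64.6, 67.6, 62.1, 68.7, 68.7 and 64.1 FPKM in the same 6 libraries. For Gad1 the factor was 1.52. Neither gene's value in replicate 5 overlapped those of the other libraries.

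The step in replicate 5 was thus unequal across the 3 genes, on the FPKM scale as well as in ratio. The difference between replicate 5 and the median of the others was 34.4 FPKM for Gad1, 27.2 FPKM for Slc32a1 and 17.0 FPKM for Gad2. The level of Slc32a1 relative to Gad1 was 0.443 in replicate 5 and 0.241 to 0.291 in the others. Gad2 relative to Gad1 was 0.343 in replicate 5 and 0.238 to 0.287 in the others. The 3 genes together summed to 179 FPKM in replicate 5 and to 93.8 to 104 FPKM in the others. Without replicate 5, Gad1 and Slc32a1 were among the steadier genes of the table: only 8.79% of all 12052 genes had a smaller range on log2(FPKM + 1) than Gad1 and 14.0% a smaller one than Slc32a1, against 58.8% for Gad2.

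**Figure D1:**
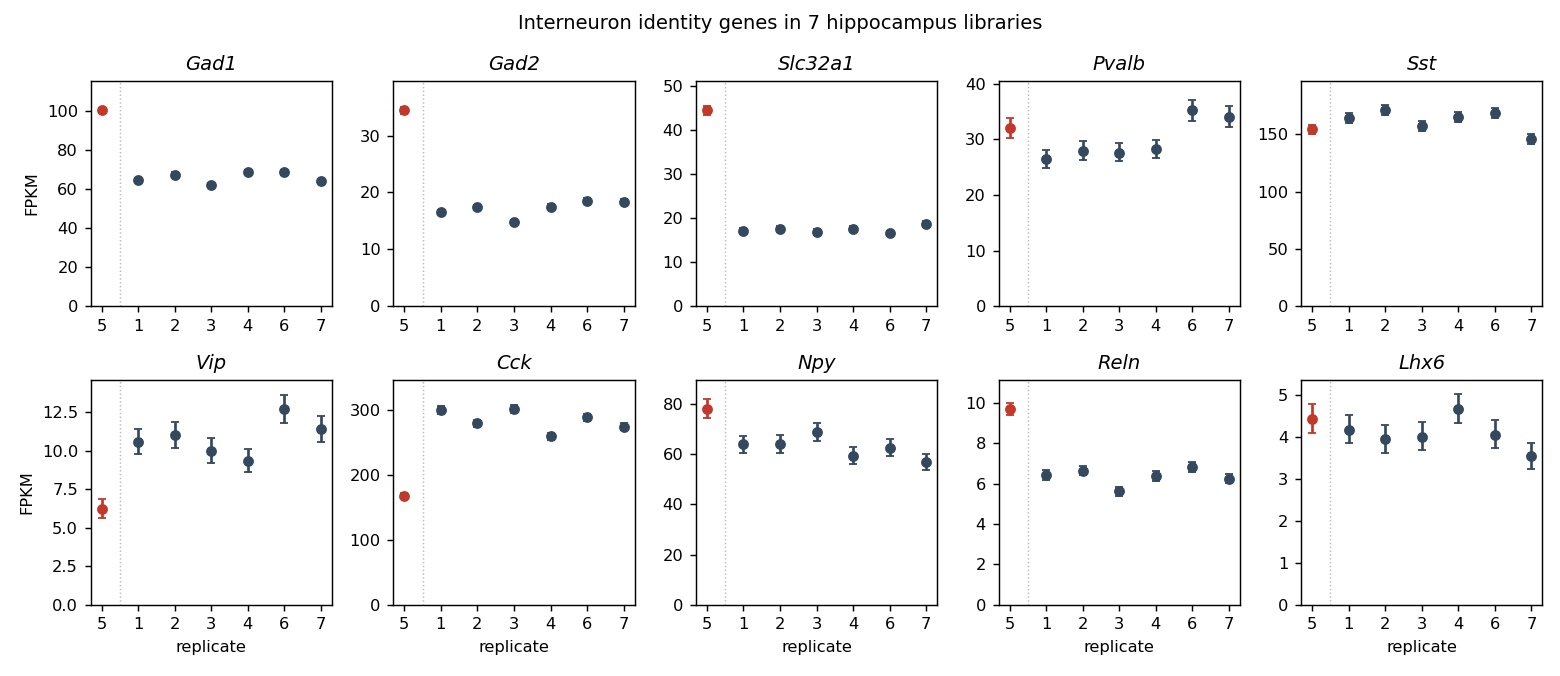
FPKM of each of the 10 genes (vertical axes, each from 0) in replicate 5 (red, left) and in replicates 1, 2, 3, 4, 6 and 7 (dark). Bars are exact 95% Poisson counting intervals. Gad1, Gad2, Slc32a1, Npy and Reln stand above the other libraries in replicate 5, Cck and Vip below them, and Sst, Pvalb and Lhx6 within their range.

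Among the 7 subtype genes replicate 5 showed no common direction. Npy and Reln were highest there, Vip and Cck were lowest, and Pvalb, Sst and Lhx6 lay within the range of the other 6 libraries. Over all 10 members, 5 were highest in replicate 5, where 21.1% of all genes were highest, and 2 were lowest, where 26.0% were lowest. At least 1.5 times the median of the others was reached by 4 members (Gad1, Gad2, Slc32a1 and Reln), against 4.17% of all genes. At most that median divided by 1.5 was seen for 2 members (Vip and Cck), against 4.96%. On log2(FPKM + 1), the deviation of replicate 5 from the median of the others had a median of 0.94 over the GABA genes, 0.11 over the subtype genes and -0.01 over all genes tested. The gap between replicate 5 and the nearest other library passed the 95% limit of Dixon's test for 7 values in 5 members, on the high side in 4 (4.35% of all genes) and on the low side in 1 (2.61%), while 9.72% of all genes had such a gap in some library. This is a description of 1 library that was already known to stand apart.

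**Figure D2:**
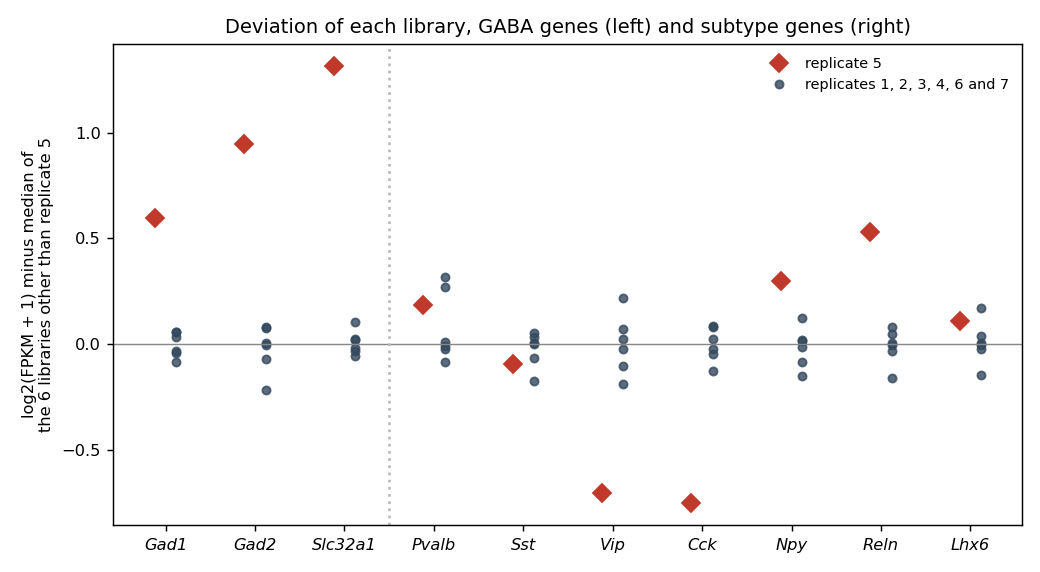
Deviation of each library from the median of the 6 libraries other than replicate 5, in log2(FPKM + 1) (vertical axis), for replicate 5 (red diamonds) and the others (dark points). Replicate 5 lies at 1.32 for Slc32a1, 0.94 for Gad2 and 0.60 for Gad1, and runs from -0.75 for Cck to 0.53 for Reln among the subtype genes.

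Sst and Lhx6, which mark interneurons born in the medial ganglionic eminence, and Pvalb, of fast-spiking cells of the same origin, did not share the step of the GABA genes. Sst, the somatostatin precursor gene (chromosome 16, 23889573 to 23890958, minus strand), had 154 FPKM in replicate 5 and 164, 171, 157, 165, 168 and 146 FPKM in replicates 1, 2, 3, 4, 6 and 7. Replicate 7 was the lowest library and replicate 2 the highest. Over all 7 libraries only 22.5% of genes had a smaller range than Sst. Relative to Gad1, Sst stood at 1.54 in replicate 5 and at 2.28 to 2.54 in the others.

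Lhx6, the LIM homeobox factor that directs medial ganglionic eminence cells to the Sst and Pvalb classes (chromosome 2, 36081953 to 36105408, minus strand), had 4.43 FPKM in replicate 5 and 4.17, 3.95, 4.01, 4.67, 4.06 and 3.55 FPKM in the other 6. It was the lowest of the 10 members in level, with 518 to 688 reads per library and a counting error of 3.81% to 4.39%. Replicate 4 was the highest and replicate 7 the lowest. The counting interval of replicate 7 met neither that of replicate 4 nor that of replicate 5, that of replicate 4 did not meet that of replicate 2, and all other pairs of intervals met. Lhx6 relative to Gad1 was 0.0441 in replicate 5 and 0.0554 to 0.0679 in the others.

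Pvalb, the parvalbumin gene (chromosome 15, 78191114 to 78206400, minus strand), had 32.1 FPKM in replicate 5 and 26.4, 27.9, 27.6, 28.3, 35.2 and 34.0 FPKM in replicates 1, 2, 3, 4, 6 and 7. Replicates 5, 6 and 7 were thus above replicates 1 to 4. The lowest counting bound among replicates 5, 6 and 7 was 30.3 FPKM, and the highest bound among replicates 1 to 4 was 29.9 FPKM. Syt2, a synaptotagmin of fast-releasing terminals, was highest in the same libraries. It had 7.29 FPKM in replicate 5, 4.44 FPKM in replicate 6 and 4.60 FPKM in replicate 7. Replicates 1 to 4 had 2.96 to 3.79 FPKM. Kcnc1 and Kcnc2, channel genes listed with Syt2 and named after their values were seen, were instead lowest in replicate 5. Kcnc1 had 14.1, 14.4 and 16.5 FPKM in replicates 5, 6 and 7, against 14.8 to 17.7 FPKM in replicates 1 to 4. Kcnc2 had 6.53, 7.94 and 10.3 FPKM, against 7.97 to 10.2 FPKM. Oligodendrocyte markers were high in replicates 5, 6 and 7. Their 10 genes summed to 1867, 1790 and 2024 FPKM there, against 1093 to 1366 FPKM in replicates 1 to 4. Their part in the Pvalb values was not tested.

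Vip and Cck, whose peptides mark interneurons from the caudal ganglionic eminence, were lowest in replicate 5. Vip (chromosome 10, 5639218 to 5647617, plus strand), typical of interneurons that inhibit other interneurons, had 6.25 FPKM in replicate 5 and 10.6, 11.0, 9.99, 9.36, 12.7 and 11.4 FPKM in replicates 1, 2, 3, 4, 6 and 7. Replicate 5 was 0.578 times the median of the others. Its counting interval, 5.64 to 6.91 FPKM from 381 reads, ended below that of replicate 4, the next lowest, which began at 8.62 FPKM.

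Cck, the cholecystokinin gene (chromosome 9, 121489824 to 121495694, minus strand), had 168 FPKM in replicate 5 and 301, 280, 302, 260, 289 and 275 FPKM in the others, a ratio of 0.592. Its low value went with low values of excitatory neuron markers: Slc17a7, the vesicular glutamate transporter gene of these cells, had 215 FPKM in replicate 5 and 383 to 475 FPKM elsewhere. Their part in the Cck value was not tested. The level of Vip relative to Cck was 0.0371 in replicate 5 and 0.0331 to 0.0440 in the others, so this ratio did not set replicate 5 apart.

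Npy and Reln were highest in replicate 5. Npy, the neuropeptide Y gene of neurogliaform and of some Sst cells (chromosome 6, 49822710 to 49829507, plus strand), had 77.9 FPKM in replicate 5 and 63.8, 63.9, 68.8, 59.4, 62.4 and 56.8 FPKM in the others. The excess over replicate 3, the next highest, was small, yet the counting intervals of 74.2 to 81.7 FPKM in replicate 5 and 65.3 to 72.4 FPKM in replicate 3 did not meet.

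Reln encodes reelin, a secreted matrix protein of Cajal-Retzius cells and of interneurons (chromosome 5, 21884454 to 22344702, minus strand). It had 9.70 FPKM in replicate 5 and 6.42, 6.65, 5.62, 6.39, 6.82 and 6.25 FPKM in replicates 1, 2, 3, 4, 6 and 7, a ratio of 1.51 to their median. That is close to the 1.52 of Gad1, and Reln relative to Gad1 stayed between 0.0905 and 0.0994 in all 7 libraries, with 0.0965 in replicate 5. No other ratio to Gad1 in replicate 5 fell inside the range of the other 6 libraries. The 6 listed Cajal-Retzius markers summed to 10.7 FPKM in replicate 5 and to 4.403 to 7.04 FPKM in the others. Only Cacna2d2, a calcium channel subunit gene, had a median of at least 1 FPKM, with 9.70 FPKM in replicate 5 and 3.03 to 4.67 FPKM in the others. Trp73, the p73 gene and the defining gene of the list, had 0.197 FPKM in replicate 5 and 0.413 to 0.875 FPKM in the others. The part of these cells in the Reln values was not tested.

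**Figure D3:**
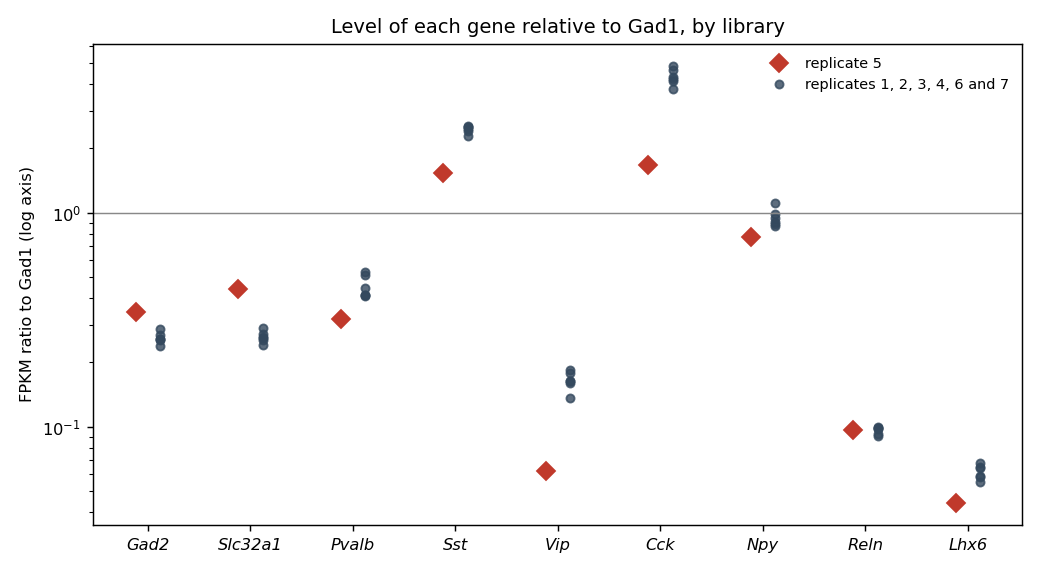
FPKM of 9 genes divided by that of Gad1 (vertical axis, logarithmic), in replicate 5 (red diamonds) and the other 6 libraries (dark points). The ratio in replicate 5 is above the others for Gad2 and Slc32a1, below them for Pvalb, Sst, Vip, Cck, Npy and Lhx6, and inside their range for Reln.

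In order of median level the genes ran from Cck at 280 FPKM through Sst (164), Gad1 (67.6), Npy (63.8), Pvalb (28.3), Slc32a1 (17.5), Gad2 (17.5), Vip (10.6) and Reln (6.42) to Lhx6 (4.06). Neighbours in this order did not always differ beyond their spread. Gad1 exceeded Npy in 6 of 7 libraries, the exception being replicate 3, and Slc32a1 exceeded Gad2 in 6 of 7, with replicate 6 the exception. Pvalb exceeded Slc32a1, and Vip exceeded Reln, in 6 of 7, replicate 5 being the exception in both. Cck exceeded Sst in 7 of 7, although the 168 FPKM of Cck in replicate 5 fell within the range of Sst over all libraries.

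Whether the subtype genes followed the GABA genes from library to library was tested without replicate 5, since a slope over all 7 would rest on that library. The GABA level was the mean of log2(FPKM + 1) over Gad1, Gad2 and Slc32a1. It was 5.77 in replicate 5, which was dropped, and 4.71 to 4.86 in the 6 libraries fitted. By limma-trend with Benjamini-Hochberg adjustment over all 12049 genes tested, none of the 7 subtype genes passed (0% of all genes passed). At an unadjusted p under 0.05 there were 344 genes, or 2.86%, and limma-voom on the recovered reads also called 0 with 309 at that level. The slope was 1.64 ± 0.92 (SE) for Pvalb, 1.06 ± 0.65 for Reln, 0.93 ± 0.91 for Vip, 0.03 ± 0.70 for Sst, -0.15 ± 0.83 for Lhx6, -1.03 ± 0.62 for Cck and -1.35 ± 0.57 for Npy, in log2 units per log2 unit of GABA level. Without replicate 3, which had the lowest GABA level of the 6, the errors of these slopes were larger. The slope was then 3.805 ± 1.83 (SE) for Pvalb, -1.70 ± 1.44 for Cck and -0.057 ± 1.41 for Reln. For Sst it was -1.07 ± 1.55 and for Lhx6 -1.01 ± 1.81. The slope of Vip was 1.48 ± 0.68 without replicate 4 and 0.50 ± 0.83 without replicate 6. Without replicate 7 the slopes of Sst and Lhx6 were 0.66 ± 0.68 and 0.46 ± 0.86. No gene passed in any of these fits. The smallest unadjusted p among the 7 over the 6 libraries was that of Npy, 0.0427, with an adjusted p of 0.993 by limma-trend. The narrow range of the GABA level in these libraries leaves wide errors, so slopes of this size were not detectable here.

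With replicate 5 included, limma-trend called 1065 genes, or 8.84%, of which Cck (slope -0.79 ± 0.09 SE, adjusted p = 0.000545), Vip (-0.70 ± 0.15, adjusted p = 0.0169) and Reln (0.58 ± 0.09, adjusted p = 0.00465) were members. Npy (0.29 ± 0.11, adjusted p = 0.161), Pvalb (0.14 ± 0.15, adjusted p = 0.650), Lhx6 (0.10 ± 0.12, adjusted p = 0.703) and Sst (-0.07 ± 0.10, adjusted p = 0.768) did not pass in that limma fit. The slopes of Sst, Vip, Npy and Lhx6 differed in sign between both fits. All slopes over 7 libraries rest on replicate 5, whose GABA level was 5.77 against 4.71 to 4.86 in the others. Their p-values therefore restate how far that library stood apart. They do not test whether the subtype genes follow the GABA genes. No label says that the libraries came from separate animals. The spread between samples behind the p-values of both fits may therefore be technical.

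**Figure D4:**
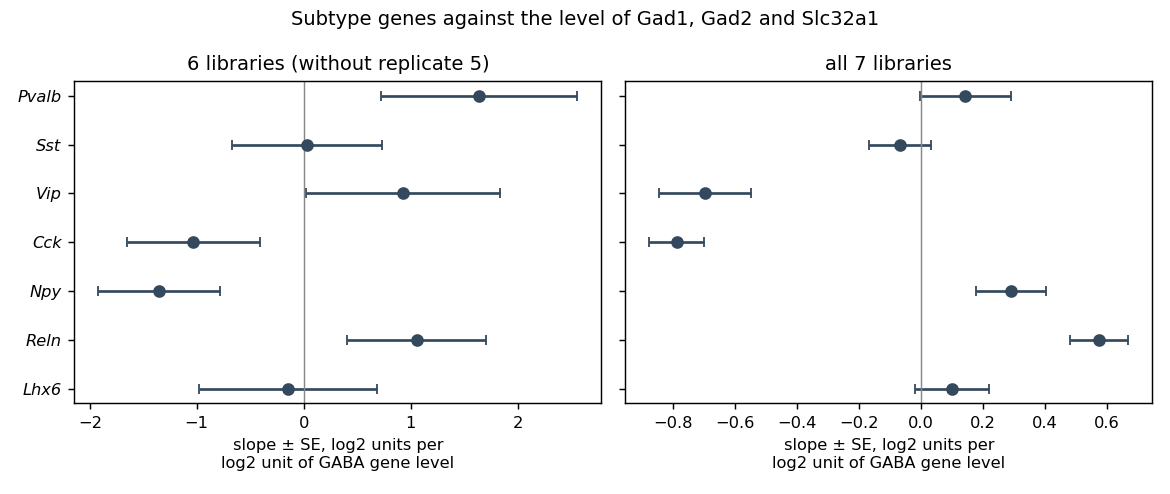
Slope of each subtype gene against the GABA level (horizontal axes, log2 units per log2 unit, with different scales), with SE, over the 6 libraries without replicate 5 (left) and over all 7 (right). On the left no gene passed the adjusted test. On the right Cck, Vip and Reln did, but the slopes there rest on replicate 5.

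The genes most like the GABA level over all 7 libraries were Ngef, Filip1, Gucy1a1, Rarb and Kcnj4, with a Pearson r on log2(FPKM + 1) of 0.993 to 0.996, given as a description that rests on replicate 5. Ngef, for instance, had 92.1 FPKM in replicate 5 and 22.0 to 26.5 FPKM in the others. Over the other 6 libraries the closest was Aldh5a1, which encodes the last enzyme of GABA breakdown, with r = 0.985, followed by Tyw3, Ssx2ip, Ola1 and Zfp318 at 0.975 to 0.979. For single subtype genes over these 6 libraries the closest were Rell1 and Rpl22l1 for Pvalb, Smyd5 and Rfx3 for Sst, Arsk and Tnfrsf19 for Vip, Cyb561d2 and Nup107 for Cck, Lta4h and Top3b for Npy, Cntln for Reln, and Cnih3 and Ppp1ccb for Lhx6, with r between 0.976 and 0.999. With 6 points and 12052 genes, coefficients of this size say little.

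Other genes of interneuron development and class did not move in 1 direction in replicate 5. Of all genes, 21.1% were highest and 26.0% lowest in that library, and the counts in the gene lists that follow are to be set beside these shares. Of 18 listed interneuron transcription factor genes, 14 had a median of at least 1 FPKM, of which 3 were highest, near the share of all genes, and 8 lowest in replicate 5. Their median deviation there was -0.16 on log2(FPKM + 1). Dlx6 and Dlx5, homeobox factors of GABAergic precursors, varied most, with 13.1 and 4.67 FPKM in replicate 5 against 1.97 to 2.33 and 1.17 to 1.79 FPKM elsewhere. Dlx1, of the same family and named after its values were seen, was lower in replicate 5 (2.27 against 2.94 to 3.81 FPKM). Prox1, also named after its values were seen, a factor of interneurons from the caudal eminence that dentate granule cells use as well, had 6.75 FPKM in replicate 5 and 11.6 to 16.9 FPKM elsewhere.

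Genes that accompany the medial eminence classes (15 of 16 listed were in the table, 12 with a median of at least 1 FPKM) had a median deviation of -0.10, with 4 highest and 6 lowest in replicate 5 (21.1% and 26.0% of all genes). Tac1, which striatal projection neurons share, had 103 FPKM there and 3.13 to 6.73 FPKM elsewhere. Nxph1, a neurexin ligand of Sst and Pvalb cells, stayed between 2.37 and 3.07 FPKM in all 7 libraries, with 2.60 FPKM in replicate 5. Genes that accompany the caudal eminence classes (13 of 15 with a median of at least 1 FPKM) had a median deviation of -0.01, with 4 highest and 5 lowest, beside the same shares of all genes. Tac2, a tachykinin gene, had 6.99 FPKM in replicate 5 and 1.59 to 2.98 FPKM elsewhere. Calb2, the calretinin gene, was high in replicates 3 and 7 instead (32.0 and 29.0 FPKM, against 14.8 FPKM in replicate 5 and 15.4 to 17.4 FPKM in the other 4). The 9 thalamic markers summed to 101 and 105 FPKM in replicates 3 and 7, against 61.4 FPKM in replicate 5 and 19.2 to 52.9 FPKM in the other 4. The 8 choroid plexus markers summed to 858 and 1120 FPKM in replicates 3 and 7, against 68.0 FPKM in replicate 5 and 25.7 to 252 FPKM in the other 4. The part of either cell type in the Calb2 values was not tested. Cxcl14, a chemokine gene of caudal eminence cells, was the steadiest, at 24.9 FPKM in replicate 5 and 23.2 to 26.8 FPKM elsewhere.

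**Figure D5:**
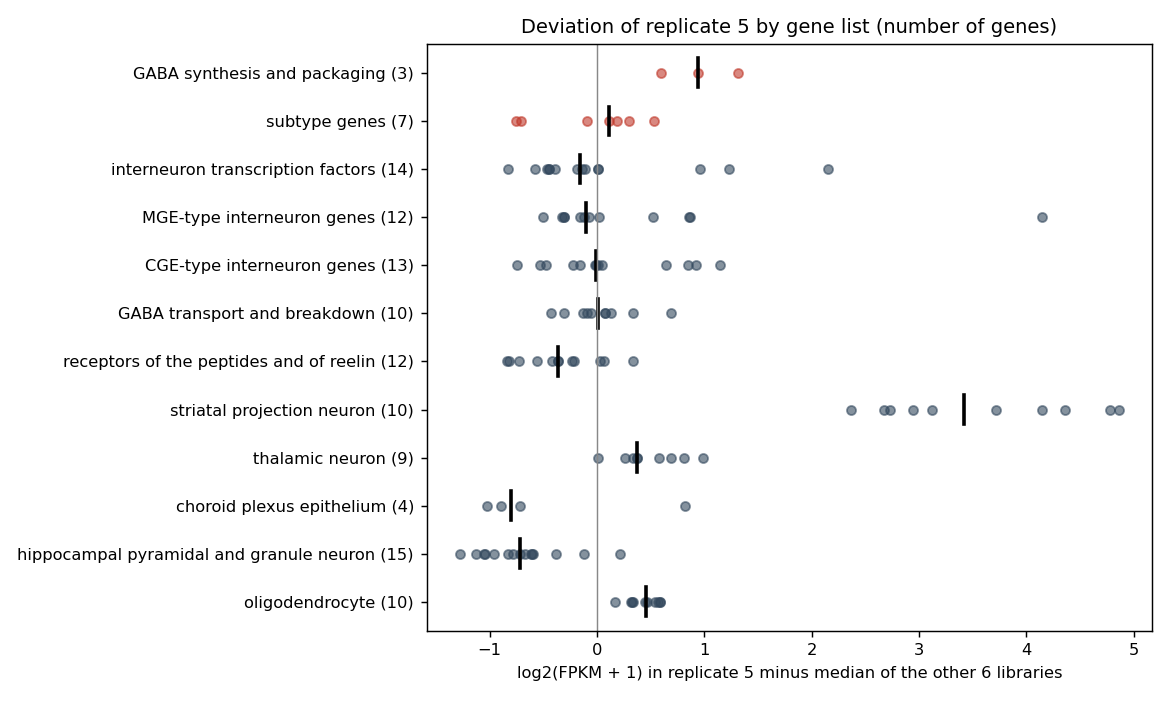
Deviation of replicate 5 from the median of the other 6 libraries, in log2(FPKM + 1) (horizontal axis), for members (red, top) and listed genes with a median of at least 1 FPKM (dark). Points are genes and black bars list medians: 0.94 for the GABA genes, 0.11 for the subtype genes and 3.42 for striatal projection neuron markers. Lists with fewer than 4 such genes are left out.

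As a list, genes that carry GABA back into cells or break it down did not share the step of Gad1, Gad2 and Slc32a1. Of 10 listed, 2 were highest and 2 lowest in replicate 5, near the shares of all genes (21.1% and 26.0%), with a median deviation of 0.01. The 2 highest there were both genes of GABA breakdown. Abat, the GABA transaminase gene, had 92.0 FPKM in replicate 5 and 50.5 to 61.8 FPKM elsewhere. Aldh5a1 exceeded the other libraries by less, with 15.9 FPKM in replicate 5 and 12.6 to 15.0 FPKM elsewhere. Slc6a13, a GABA transporter gene of the meninges, was low in 1 other library, with 2.28 FPKM in replicate 5, 0.927 FPKM in replicate 1 and 1.45 to 2.53 FPKM in the rest.

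Receptors of the peptides and of reelin were mostly low in replicate 5. Of 15 listed, 12 had a median of at least 1 FPKM, of which 8 were lowest and 1 highest there (26.0% and 21.1% of all genes), with a median deviation of -0.36. Npy2r, a presynaptic neuropeptide Y receptor gene, had 8.72 FPKM in replicate 5 and 14.7 to 19.4 FPKM elsewhere, and Sstr4, a somatostatin receptor gene, had 7.51 and 11.6 to 15.1 FPKM. Npy1r varied least (6.24 against 6.96 to 7.82 FPKM). Excitatory neuron markers were low in the same library, and their part in these values was not tested.

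Markers of striatal projection neurons and of cholinergic neurons were high in replicate 5 beside the GABA genes, and those of choroid plexus were not. Adora2a, a defining gene of striatal projection neurons named after its values were seen, had 61.6 FPKM in replicate 5 and 0.372 to 0.722 FPKM in the others. The 5 listed cholinergic neuron markers, all with a median under 1 FPKM, summed to 22.3 FPKM in replicate 5 and to 0.331 to 0.645 FPKM elsewhere. Chat, which makes acetylcholine, had 5.02 FPKM there and 0.00926 to 0.0470 FPKM elsewhere. Choroid plexus markers (8 genes) summed to 68.0 FPKM in replicate 5 and to 25.7 to 1120 FPKM in the others. The part of these cells in the GABA gene values was not tested. Without replicate 5, the summed striatal markers ranged only from 102 to 123 FPKM and the GABA level from 4.71 to 4.86.

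Some transcripts overlap members in GENCODE M21, and the sources used here do not state whether counting used strand. Gad1os runs opposite Gad1 without overlapping its exons and did not exceed 0.239 FPKM. Antisense transcripts overlap exons of Slc32a1 (Gm14205) and of Reln (Gm10475), and a short RNA (Gm27953) those of Lhx6. Gm14205, Gm10475 and Gm27953 had no row in the deposited table, so reads of each pair cannot be told apart.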

How the data were processed

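Hippocampal RNA of 7 samples was made into SMARTer libraries, per the labels' protocols. One FPKM table was deposited by the authors; the unit comes from its name and the build, mm10, from the submitters' processing notes. For aligner, counter and annotation: not given in the sources used here. Differences in RNA composition are not removed by FPKM. Columns were matched to samples by library name. Labels put all samples in 1 group, so condition was not compared.

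Members and lists were chosen with earlier results of these data known. The 12052 genes whose median FPKM reached 1 were kept, and log2(FPKM + 1) used, which understates changes of low genes. Reads per library were recovered as the smallest whole numbers in the ratio of a gene's depth-corrected values, with a tolerance of 0.02, for 12050 genes; depth was 35465159 to 36794804 reads. Poisson intervals cover counting error only. The GABA level was tested by limma-trend (Benjamini-Hochberg, 0.05) over 6 libraries, a step tested on simulated data. Named genes were all members, the 2 most and the 1 least variable gene of each list, and those closest in Pearson r: 5 to the GABA level over 7 and over 6 libraries, and 2 to each subtype gene. Some of these are not reported here. Others were chosen after their values were seen. Btbd11 was not found in the table. Promoters came from RefSeq on GRCm38.p6 and positions from GENCODE M21. Alternatives were another pseudocount (0.1), filters, scalings, GABA level definitions, limma without trend, leaving out libraries and, added after seeing the data, limma-voom. Software was limma 3.58.1 under R 4.3.3 and, under Python 3.11.15, scipy 1.17.1, pandas 2.3.3, numpy 2.4.6 and matplotlib 3.10.9.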

Additional observations from a re-analysis of the deposited data

Results flagged for a closer look

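In 5 of the 10 members 1 library, replicate 5, was separated from the nearest other library by a share of the range of all 7 above the 95% limit of Dixon's test. The gap took 0.925 of the range for Slc32a1, 0.828 for Gad1, 0.813 for Gad2 and 0.706 for Reln, where replicate 5 was high, and 0.686 for Cck, where it was low. Chance flags about 1 in 20 such sets, and members share their libraries, so these flags are not independent. Of all 12052 genes, 9.72% had such a gap in some library, 4.35% in replicate 5 as the high one and 2.61% in replicate 5 as the low one.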

How the results depend on the processing

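The count of genes that followed the GABA level was 0 in the fit over 6 libraries and in 17 of 18 alternatives, leave-one-out fits included (0 to 0). It was 1065 when all 7 libraries were fitted, where the alternative differs only by replicate 5. The excess of the GABA genes over the subtype genes in replicate 5 (0.84 on log2(FPKM + 1)) was 0.83 to 0.85 with each other library left out in turn and 0.80 to 0.85 under the other settings, and the deviations of single members moved by less than the spread between libraries in 90 of 90 alternatives. Slopes of the subtype genes, none of which passed over 6 libraries, changed sign in 16 of 125 alternatives. With all 7 libraries Sst was -0.068, Vip -0.70, Npy 0.29 and Lhx6 0.10. With the level taken from Slc32a1 alone Sst was -0.94, Vip -0.29 and Reln -0.075, and from Gad1 alone Lhx6 was 0.85. Lhx6 was 0.65 after rescaling to a sum of 1000000 and 0.090 under upper-quartile scaling. With single libraries left out the slopes ran from -1.07 to 0.66 for Sst and from -0.057 to 1.37 for Reln. Those of Lhx6 ran from -1.01 to 0.46 and those of Pvalb from 1.21 to 3.805. The range was -1.70 to -0.81 for Cck, 0.50 to 1.48 for Vip and -1.55 to -1.09 for Npy. Apart from the change of libraries, the cause was not tested. With a median FPKM minimum of 5, Lhx6 was not tested. No paired analysis was possible because all samples stand in 1 group. Lhx6 and Vip, with the fewest reads, are limited most by depth.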
